A study of Mus musculus with 2 samples.

Results

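The immediate-early genes described here are Fos, Fosb, Jun, Junb, Jund, Egr1, Egr2, Egr3, Atf3 and Ier2, 10 of the 33696 genes counted in lung cells of adult mice. They were listed by gene family and role, with earlier results of these data known, and all 10 had UMIs (unique molecular identifiers, each standing for 1 captured RNA molecule) in both libraries. The study asked how the loss of GFI1, a zinc-finger transcriptional repressor, changes the cells of barrier tissues. Lungs were dissociated with enzymes, live cells were sorted, and 3′ ends of RNA were sequenced from single cells. A library labelled GFI1 KO, from mice with the germline deletion of Gfi1, was compared with a library labelled GFI1 WT, both from adult lung and without any further treatment stated in the labels. The knockout is germline, so it is carried by every lung cell, leukocyte or not. The study's methods speak of duplicate samples for each genotype, 1 library per label was analysed here, and the number of mice behind a library is not stated.

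Immediate-early genes are transcribed within minutes of a stimulus, from promoters that already hold their activators, and most of their RNAs are short-lived. Fos, Fosb, Jun, Junb and Jund encode the basic leucine zipper subunits of AP-1, in which a Fos protein must pair with a Jun protein to bind DNA, while Jun proteins can also pair with each other. Egr1, Egr2 and Egr3 encode zinc-finger factors that bind GC-rich sites, Atf3 encodes a stress-induced zipper protein that often represses its targets, and Ier2 encodes a nuclear protein of the early response to growth factors. Warm enzymatic digestion of a tissue is itself known to raise several of these genes, and so are growth factors, mechanical load and ligands of innate receptors.

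The library labelled GFI1 KO held 10700 cells and 116825535 gene UMIs, and the library labelled GFI1 WT held 19515 cells and 162599284 gene UMIs. After filters on cells 10495 and 19342 remained, with medians of 11076 and 6217 UMIs per cell. Cells were placed by markers in classes named for the cells those markers define (NK-like, B-like and so on, with the suffix left out from here), which took 75.2% and 84.8% of the cells. Of these, 9 classes had at least 50 cells in both libraries, and 6 more, among them neutrophils and fibroblasts, reached 50 cells only in the GFI1 WT library. Gfi1 RNA stood at 3.60 CPM (UMIs of the gene per 1000000 UMIs of the library or class, 95% interval 3.23 to 4.0) in the GFI1 KO library and at 3.47 CPM (3.16 to 3.80) in the GFI1 WT library, and 3′ counts may lie outside the deleted part, so the RNA level did not check the labels, and "GFI1 KO library" and "GFI1 WT library" mean the libraries so labelled. Of the cell barcodes, 74 occurred in both libraries, 4 of them in the same class. There was 1 library for each label. No difference below therefore has a test, a p-value or a replicate error, all intervals cover counting error only, and genotype, mouse, dissociation and library cannot be told apart.

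Promoters are shown first, since the genes are grouped by how fast they can be switched on. RefSeq start sites on build GRCm38.p6 gave a window of 250 bases before to 50 after the start for 7 of the 10 genes (Fos, Fosb, Jun, Junb, Jund, Egr2 and Atf3). Only the 250 bases before the start were searched, here and over all windows. TGACG, the core of the cAMP response element bound by CREB and ATF proteins, was searched on both strands and occurred in the windows of 5 of these 7 genes (Fos, Fosb, Junb, Egr2 and Atf3), against 17.8% of all 32851 windows. The full palindrome TGACGTCA, which contains that core, occurred in 0 of 7 (1.55% of all windows), the AP-1 site TGANTCA in 0 of 7 (6.75%), the TATA box TATAAA in 1 of 7 (Fos, against 7.59%) and the CArG box bound by serum response factor in 1 of 7 (Egr2, against 1.47%). A gene was counted when any of its windows held a match, while the percentages are shares of single windows, so the 2 are not strictly alike. Sites farther upstream were not searched. These are matches of letters and say nothing of binding in these cells. For the 5 genes with the core, the 120 bases before the start that hold it are printed on the strand of the gene, with the matched motifs in capitals. They lie at chr12:85473770-85473889 (Fos, plus strand), chr7:19310046-19310165 (Fosb, minus strand), chr8:84978749-84978868 (Junb, minus strand), chr10:67537749-67537868 (Egr2, plus strand, 1 of 5 annotated windows) and chr1:191183334-191183453 (Atf3, minus strand). In Fos the second run of capitals is the TATA box, and in Egr2 the middle run is the CArG box.
Fos: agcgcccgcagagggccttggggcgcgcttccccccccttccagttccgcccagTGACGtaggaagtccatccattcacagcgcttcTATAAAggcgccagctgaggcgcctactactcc
Fosb: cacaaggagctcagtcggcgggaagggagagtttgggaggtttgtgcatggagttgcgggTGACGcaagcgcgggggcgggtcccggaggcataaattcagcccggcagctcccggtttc
Junb: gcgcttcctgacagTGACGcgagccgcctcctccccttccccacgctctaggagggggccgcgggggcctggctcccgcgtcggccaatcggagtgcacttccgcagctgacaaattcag
Egr2: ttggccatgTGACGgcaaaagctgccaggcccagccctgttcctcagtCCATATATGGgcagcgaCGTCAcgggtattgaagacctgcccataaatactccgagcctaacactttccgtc
Atf3: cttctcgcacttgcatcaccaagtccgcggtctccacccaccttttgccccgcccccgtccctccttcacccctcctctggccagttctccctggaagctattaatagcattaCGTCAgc

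The 10 genes did not follow one pattern over the lung. Unless other classes are named, the orders of levels given from here are over the 9 classes with 50 cells in both libraries. Jun led in endothelium, Junb in CD4 and gamma-delta T cells, Jund in B cells, Fos and Atf3 in classical monocytes, Fosb, Egr1 and Egr2 in alveolar macrophages, and Egr3 in B cells. Spearman's rho between the 2 libraries over these 9 classes was lowest for Ier2 (0.35), followed by Egr1 and Egr3 (0.68 each) and Fos (0.72), and highest for Junb (0.98), Atf3 (0.97) and Fosb (0.90). These are descriptions over classes that share a library, and the levels of different genes are not compared with each other here, because the counts come from 3′ ends.

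**Figure D1:**
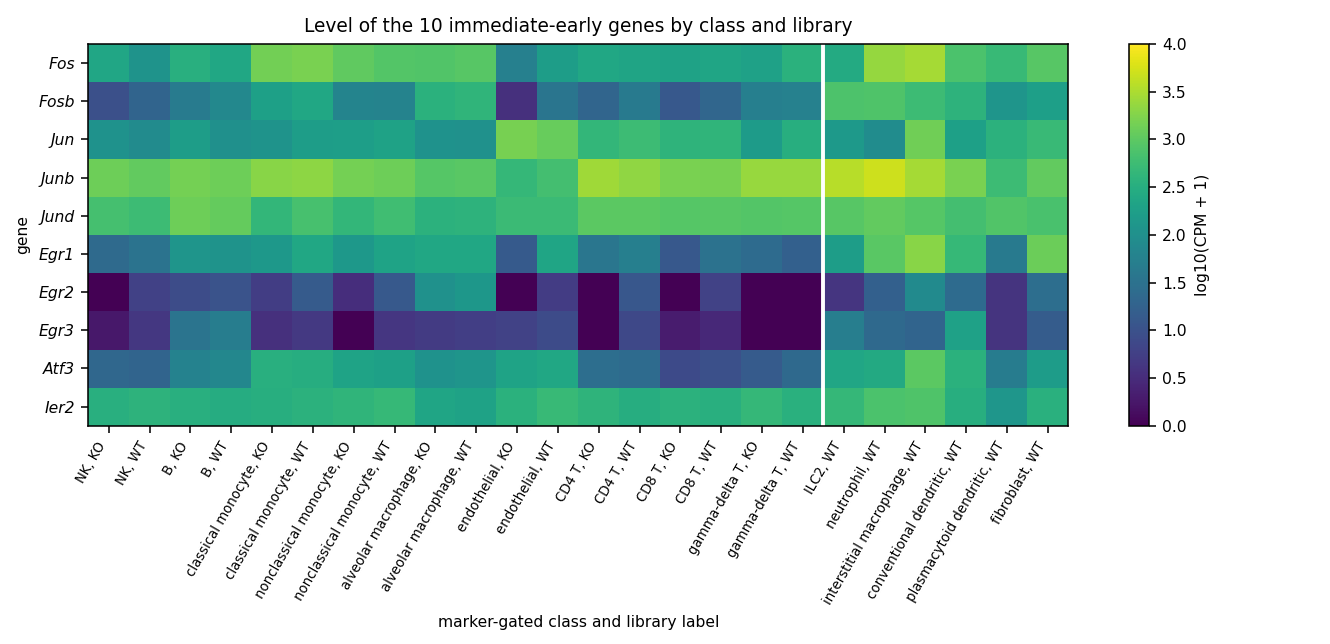
Level of each gene (rows) in each marker-gated class and library (columns), as log10(CPM + 1). The 9 classes left of the white line have 50 or more cells in both libraries, and the 6 to the right have them only in the GFI1 WT library. Jun is brightest in endothelium among the 9 classes (1516 and 1174 CPM), while Egr2 stands out in alveolar macrophages (104 and 131 CPM).

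Among the Fos proteins, which cannot bind DNA without a Jun partner, Fos was highest in the myeloid classes among the 9. Its level in the GFI1 KO library was 1402 CPM in classical monocytes, 1057 in nonclassical monocytes and 820.0 in alveolar macrophages, then 338 in B cells, 239.8 in CD4 T, 233 in NK, 201 in CD8 T and 190.5 in gamma-delta T cells, and 54.0 in endothelium. In the GFI1 WT library it was 1556 CPM in classical monocytes, 902 in alveolar macrophages and 855 in nonclassical monocytes, then 363 in gamma-delta T, 241 in B, 225 in CD8 T and 219 in CD4 T cells, 170.2 in endothelium and 111 in NK cells. The 3 myeloid classes lay above the other 6 in both libraries. The intervals of CD4 T, NK, CD8 T and gamma-delta T cells overlapped from neighbour to neighbour in the GFI1 KO library, as did those of B, CD8 T and CD4 T cells in the GFI1 WT library. The 7 classical monocyte markers gave a rough gauge of monocyte RNA, an upper limit where a class makes some of them itself. At their ratio to Fos in classical monocytes of the same library, Fos would be 287 and 109 CPM in CD8 T cells. It would be 184 and 109.8 CPM in gamma-delta T, 148 and 193 in NK, 72.1 and 48.6 in B and 58.0 and 38.8 in CD4 T cells. The gauge exceeded the Fos counted in CD8 T cells of the GFI1 KO library (287 against 201) and in NK cells of the GFI1 WT library (193 against 111). It is therefore not an exact measure. The part of monocyte RNA in the Fos levels was not tested.

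Fosb, the paralogue of Fos, was highest in alveolar macrophages, the resident phagocytes of the airspace, at 359 CPM in the GFI1 KO library and 419 in the GFI1 WT library. Classical monocytes followed at 188 and 240.4 CPM. The 5 lymphocyte classes among the 9 stayed at 72.1 CPM or less, and NK cells had 8.59 CPM (11 UMIs) and 18.6 CPM (149 UMIs). Fosb in endothelium was 2.57 CPM (1 UMI) against 34.5 CPM (376 UMIs).

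The Jun genes divided the lung between them. Jun, the classical AP-1 activator, was highest of the 9 classes in endothelium, at 1516 CPM (1396 to 1644) in the GFI1 KO library and 1174 CPM (1153 to 1194) in the GFI1 WT library, and the next class, CD4 T cells, reached 451 and 547 CPM. It was lowest in NK cells, at 108 and 84.2 CPM. Junb, which opposes Jun at many sites and is needed by several effector T cell types, was highest in CD4 T cells (2686 and 2174 CPM) and gamma-delta T cells (2447 and 2388 CPM), whose intervals overlapped, and lowest in endothelium (457 and 639 CPM). Jund, the Jun gene that is most constitutively expressed, was highest in B cells (1313 and 1132 CPM) and lowest in alveolar macrophages (365 and 391 CPM), a span over the 9 classes of 3.60-fold and 2.90-fold.

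The makeup of AP-1 RNA differed more between classes than between libraries. Jun gave 60.6% (Clopper-Pearson 95% interval 57.5 to 63.7) and 50.2% (49.6 to 50.8) of the UMIs of the 3 Jun genes in endothelium in the GFI1 KO and GFI1 WT libraries, and between 3.98% and 14.7% in the other 8 classes. Fos and Fosb together gave 46.7% and 47.9% of the UMIs of the 5 AP-1 genes in alveolar macrophages, 38.6% and 38.0% in classical monocytes and 35.1% and 30.5% in nonclassical monocytes. In the 5 lymphocyte classes among the 9 this share lay between 5.94% and 11.5%, and in ILC2 of the GFI1 WT library, innate lymphoid cells outside the 9, it was 18.2% (16.5 to 20.1). Endothelium had 2.21% (1.39 to 3.33) in the GFI1 KO library and 8.04% (7.73 to 8.37) in the GFI1 WT library. Of the classes with 50 cells in the GFI1 WT library only, interstitial macrophages had a Fos-family share of 40.2%, neutrophils 33.9%, conventional dendritic cells 32.2% and fibroblasts 31.9% in that library, and the share of Jun among Jun genes ran from 1.39% in neutrophils to 26.3% in interstitial macrophages.

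**Figure D2:**
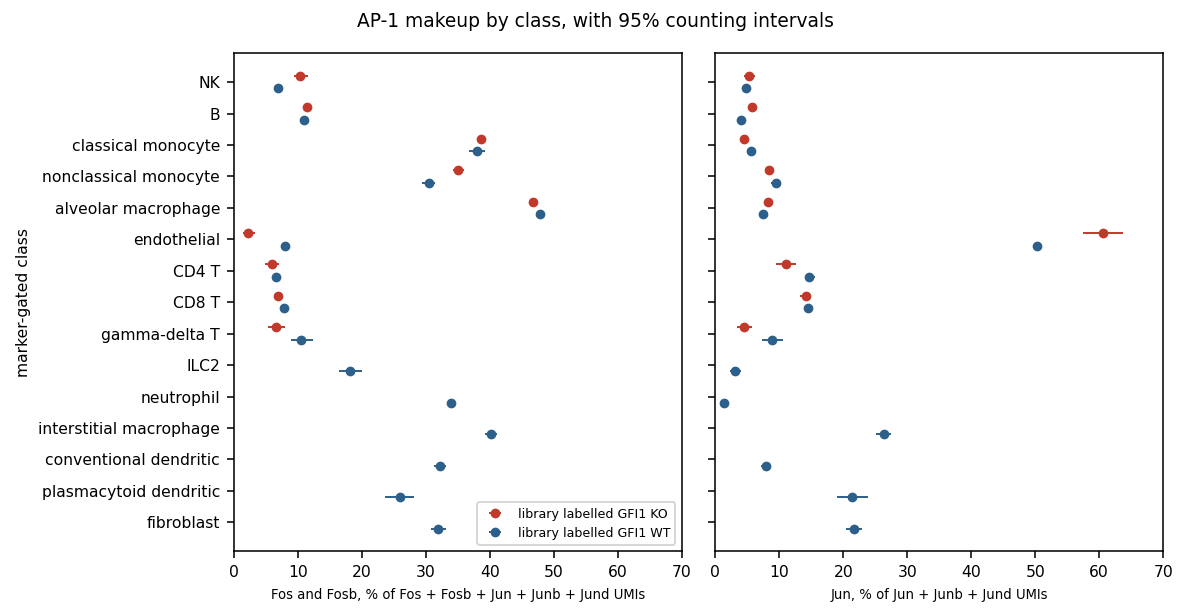
Share of AP-1 UMIs that came from Fos and Fosb (left, in percent) and share of Jun-gene UMIs that came from Jun (right, in percent) in each class, with Clopper-Pearson 95% intervals that cover counting error only. Among the 9 compared classes alveolar macrophages lie highest on the left (46.7% and 47.9%), and endothelium lies highest on the right (60.6% and 50.2%).

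Egr1, an early target of growth factor and integrin signals, was highest of the 9 classes in alveolar macrophages at 239.9 CPM (234 to 246) and 242 CPM (238 to 246), equal within counting error between the libraries. In the GFI1 WT library classical monocytes (240.4 CPM), endothelium (227 CPM) and nonclassical monocytes (211 CPM) came next, their intervals overlapping from neighbour to neighbour. In the GFI1 KO library the 2 monocyte classes and B cells lay at 136, 134 and 119.7 CPM, and endothelium lay at 12.8 CPM, next to CD8 T cells at 11.6 CPM.

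Egr2, which is known to help maintain alveolar macrophage identity, had the widest gap between its first and second class among the 9. Alveolar macrophages had 104 CPM (2932 UMIs) in the GFI1 KO library and 131 CPM (6402 UMIs) in the GFI1 WT library, and the next class had 7.52 CPM (B cells) and 13.2 CPM (classical monocytes, 18 UMIs). Interstitial macrophages of the GFI1 WT library had 79.9 CPM (83 UMIs). After each cell was thinned to 1500 UMIs, 13.6% (12.2 to 15.0) and 15.9% (14.7 to 17.0) of alveolar macrophages held an Egr2 UMI, with median depths of 13406 and 13968 UMIs before thinning, when the shares were 52.2% and 61.9%. In NK cells, taken as cells that should hold little of it, the thinned shares were 0 of 225 cells (up to 1.63%) and 0.510% (10 of 1961), at median depths of 5680 and 4214 UMIs. Chil3, an abundant alveolar macrophage RNA, was read as a gauge of free RNA in the 8 other classes. If all Egr2 there came with Chil3 at the ratio found in alveolar macrophages of the same library (9.73 and 9.85 Egr2 UMIs per 1000 Chil3 UMIs), B cells would have 0.836 and 1.34 CPM where 7.52 and 9.58 were counted, CD4 T cells of the GFI1 WT library 2.95 where 11.0 were counted, and classical monocytes 42.3 and 13.5 where 4.39 and 13.2 were counted. Chil3 is also known in monocytes, so for them the gauge is an upper limit.

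Egr3, induced by antigen receptor signals in lymphocytes, was highest of the 9 classes in B cells at 33.7 CPM (27.5 to 40.8) and 49.0 CPM (45.1 to 53.1), and no other of the 9 classes passed 7.16 CPM. Conventional dendritic cells, below 50 cells in the GFI1 KO library, had more: 244 CPM (107 UMIs in 45 cells) and 195 CPM (481 UMIs in 230 cells).

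Atf3, the stress-induced member, was highest in classical monocytes at 335 CPM (328 to 342) and 307 CPM (278 to 338) and lowest in CD8 T cells at 6.85 CPM (13 UMIs) and 8.62 CPM (46 UMIs), a span of 48.9-fold and 35.6-fold. Endothelium had 206 and 243 CPM and alveolar macrophages 107 and 121 CPM. The order of the classes was thus close to the same in both libraries. Ier2 had the narrowest span over the 9 classes, from 226 CPM in alveolar macrophages to 468 in gamma-delta T cells in the GFI1 KO library and from 204 in alveolar macrophages to 499 in endothelium in the GFI1 WT library, a span of 2.07-fold and 2.45-fold.

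Summed over the 10 genes, the level in the GFI1 WT library was 11263 CPM (11163 to 11364) in neutrophils and 12447 CPM (12233 to 12663) in interstitial macrophages, above every one of the 9 compared classes, which lay between 2313 CPM (NK cells) and 5669 CPM (classical monocytes). ILC2, group 2 innate lymphoid cells, had 6690 CPM, fibroblasts 5228, conventional dendritic cells 4873 and plasmacytoid dendritic cells 2577. The 24 interstitial macrophages in the GFI1 KO library had 11958 CPM. The 22 cells in the neutrophil class in that library had 4195 CPM, but their median depth was 13960 UMIs against 2955 for the 1423 neutrophils in the GFI1 WT library, so the neutrophil classes were not alike and are not compared. Neutrophils in the GFI1 WT library had 4986 CPM of Junb, 2353 of Fos, 937 of Egr1 and 798 of Fosb. Interstitial macrophages had 2935 CPM of Fos, 1929 of Egr1, 1364 of Jun and 974 of Atf3. Fos, Egr1 and Atf3 there lay above their levels in all 9 compared classes, and Jun lay above all but endothelium of the GFI1 KO library.

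Lymphoid and dendritic classes of the GFI1 WT library added contrasts of their own. Among classes with 50 cells, ILC2 had the highest Junb after neutrophils, at 3656 CPM (3447 to 3873), and had 774 CPM of Fosb (243 UMIs) beside 277 CPM of Fos (87 UMIs), where CD4 T cells of the same library had 41.4 and 219 CPM. Conventional dendritic cells had 745 CPM of Fos, 477 of Egr1 and 355 of Atf3. Plasmacytoid dendritic cells, the interferon-producing dendritic class, had 486 CPM of Fos, 373 of Jun, 42.9 of Egr1 and 47.3 of Atf3, and their 127 CPM of Ier2 (86 UMIs) lay under the level of every compared class. Basophils or mast cells, with 17 and 9 cells, had the highest sums of all, 13998 CPM in the GFI1 KO library and 16864 in the GFI1 WT library, on too few cells for more than a mention.

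Between the libraries, most members lay within 2-fold in most classes. Of 90 pairs of a gene and a class, 80 had the 30 UMIs over both libraries that were asked for, 68 of them lay within 2-fold, 1 was higher in the GFI1 KO library and 11 were lower. That is 15.0% past 2-fold, against 10.8% over all genes and classes counted the same way. The intervals of 11 of these 12 ratios excluded 1.

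By class, members past 2-fold are read against the share of all genes past 2-fold in the same cells. In NK cells it was 3 of 9 (1 higher, 2 lower), against 14.4% of all genes. In B cells it was 0 of 10, against 5.63%. In classical monocytes it was 1 of 10, lower, against 14.9%, and in nonclassical monocytes 1 of 9, lower, against 4.92%. In alveolar macrophages it was 0 of 10, against 4.83%. In endothelium it was 4 of 10, all lower (Egr2 with an interval that held 1), against 15.4% either way and 11.5% lower. In CD4 T cells it was 1 of 8, lower, against 12.6%. In CD8 T cells it was 1 of 8, lower, against 7.00%, and in gamma-delta T cells 1 of 6, lower, against 25.8%. Endothelium and NK cells were thus the classes where the members' share lay farthest above that of all genes, on counts of 4 and 3, while the other classes had 0 or 1.

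**Figure D3:**
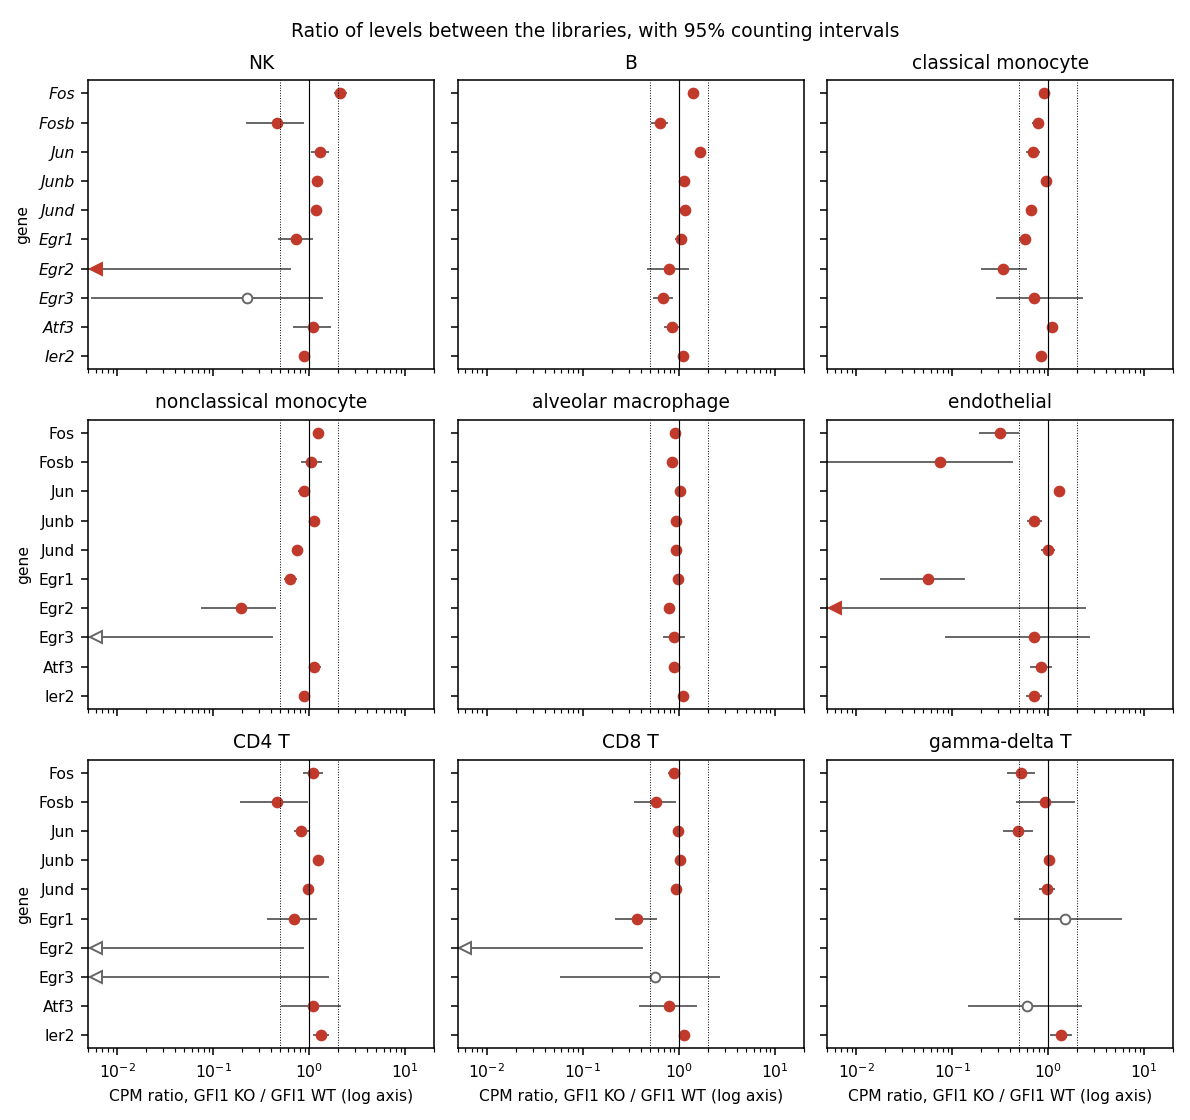
Ratio of levels, GFI1 KO over GFI1 WT, for each gene in the 9 classes on a log axis, with exact 95% counting intervals. Filled symbols have at least 30 UMIs over both libraries, open symbols fewer, arrowheads at the left edge mark 0 UMIs in the GFI1 KO library, intervals are drawn only within the axis, and dotted lines mark 2-fold. In endothelium Fos, Fosb and Egr1 lie left of the dotted line while Jun lies at 1.29, and in alveolar macrophages all 10 genes lie within 2-fold.

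Endothelium split the members. Egr1 was 12.8 CPM (5 UMIs in 108 cells) in the GFI1 KO library against 227 CPM (2477 UMIs in 2202 cells) in the GFI1 WT library, a ratio of 0.0565 (0.0183 to 0.132). Fos was 54.0 CPM (21 UMIs) against 170.2 CPM (1855 UMIs), a ratio of 0.317 (0.196 to 0.486), and Fosb, with 1 UMI against 376, had a ratio of 0.0745. Egr2 had 0 UMIs against 45, and with a floor of 7.71 CPM for 3 UMIs a difference from 4.13 CPM was not detectable at this depth. Jun went the other way, with a ratio of 1.29 (1.19 to 1.40), and Jund was alike at 527 CPM in both. Atf3 (0.845), Junb (0.716), Ier2 (0.710) and Egr3 (0.718, on 2 UMIs against 78) lay within 2-fold. In the GFI1 KO library the Fos and Egr1 RNAs were thus low, on 21 and 5 UMIs, in the same class in which Jun RNA was high. In the GFI1 WT library Egr1 was not low there, at 227 CPM.

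The lower Egr1 was also seen per cell, while for Fos, Fosb and Jun the intervals of the shares overlapped. At 1500 UMIs a cell, 2.02% (0.246 to 7.11) of 99 endothelial cells in the GFI1 KO library and 12.4% (11.0 to 13.9) of 2077 in the GFI1 WT library held an Egr1 UMI, and for Jun the shares were 82.8% (73.9 to 89.7) and 76.4% (74.5 to 78.2). Before thinning the Egr1 shares were 2.78% and 20.1%, at median depths of 3707 and 4888 UMIs. For Fos the thinned shares were 7.07% (2.89 to 14.0) and 13.8% (12.4 to 15.4). For Fosb they were 1.01% (0.0256 to 5.50) and 3.80% (3.02 to 4.72). Within general capillary cells alone (100 and 1920 cells), Egr1 had a ratio of 0.0666 (13.8 against 207 CPM), Fos of 0.287 (49.8 against 173 CPM) and Jun of 1.36, so the result was as large without the aerocytes, of which there were 6 and 159. Heat shock genes were higher in endothelium in the GFI1 KO library, opposite to Egr1 and Fos. The summed level of the 12 listed was 7758 CPM in the GFI1 KO library and 4756 in the GFI1 WT library, a ratio of 1.63 (1.57 to 1.69). Hspa1a was at 483 against 136 CPM. The 7 classical monocyte markers were all higher there in the GFI1 KO library, at 113 against 41.3 CPM in sum. The part of either in the result was not tested.

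The 18 fibroblasts in the GFI1 KO library, too few for a comparison, had 329 CPM of Egr1 (33 UMIs), 189 of Fos (19 UMIs), 0 UMIs of Fosb and 29.9 CPM of Atf3 (3 UMIs). The 297 fibroblasts in the GFI1 WT library had 1260 CPM of Egr1, 910.3 of Fos, 181 of Fosb and 159 of Atf3. Jun was 578 and 504 CPM.

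Fos in NK cells was the only member value past 2-fold higher in the GFI1 KO library, at 233 CPM (298 UMIs in 231 cells) against 111 CPM (894 UMIs in 2010 cells), a ratio of 2.09 (1.83 to 2.38). At 1500 UMIs a cell, 30.2% (24.3 to 36.7) against 11.1% (9.76 to 12.6) of NK cells held a Fos UMI. Its ratio falls to 0.96 on the log2 scale, just under 2-fold, when ribosomal, mitochondrial and Gm-named genes stay in the denominator. Fosb went the other way in the same cells, at 8.59 CPM (11 UMIs) against 18.6 CPM (149 UMIs), a ratio of 0.463 (0.226 to 0.852), which ran from -1.22 to -0.52 on the log2 scale over the alternatives. Egr2 had 0 UMIs against 39 (4.86 CPM), a level 2.07 times the floor of 3 UMIs in the GFI1 KO library, which is not an exact bound. Free RNA at the Chil3 ratio would give 3.02 of those 4.86 CPM, and its part was not tested. Jun (1.29), Junb (1.20) and Jund (1.16) were slightly higher and Egr1 (0.726) and Ier2 (0.889) slightly lower. Heat shock genes stood at 8304 against 4934 CPM in NK cells, a ratio of 1.68, and 2 of the 11 with 30 UMIs, Hspa1a (6.38) and Hspa8 (2.06), were past 2-fold. Their median log2 ratio was 0.68, against -0.05 for all genes. The 8 reference genes were also shifted there, with a median of 0.44 (-0.42 to 1.43) and Gapdh past 2-fold higher. The 7 classical monocyte markers summed to 635 against 889 CPM, 5 of them higher in the GFI1 KO library. At the ratio of Fos to these markers in classical monocytes of the same library, Fos would be 148 and 193 CPM. The second value exceeds the 111 CPM counted, so the gauge is at most an upper limit here. The part of these in the Fos level was not tested.

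In monocytes the member past 2-fold was Egr2, at 4.39 CPM (121 UMIs) against 13.2 CPM (18 UMIs) in classical and 2.33 CPM (8 UMIs) against 12.0 CPM (29 UMIs) in nonclassical monocytes, with ratios of 0.334 and 0.194. Leaving out the tenth of nonclassical monocytes with the most UMIs turned the second ratio, to 0.26 on the log2 scale from -2.36, so it rested on few cells of high depth. Free RNA at the Chil3 ratio would give 42.3 and 13.5 CPM of Egr2 in classical monocytes of the GFI1 KO and GFI1 WT libraries. In nonclassical monocytes it would give 9.15 and 17.3 CPM. All of these exceed the levels counted. For monocytes this gauge is an upper limit, and the part of free RNA was not tested. In classical monocytes 8 of the other 9 members lay below 1, down to Egr1 at 0.566 and Jund at 0.665, with Atf3 at 1.09 (0.989 lower bound), and the members' median was -0.45 on the log2 scale against 0.04 for all genes. These cells were 2810 in the GFI1 KO library and 195 in the GFI1 WT library, at median depths of 12016 and 8562 UMIs. They made up 26.8% and 1.01% of the cells. Of their 7 markers 2 were higher in the GFI1 KO library, Ly6c2 was 957 against 1740 CPM, and Chil3 was 4351 against 1375 CPM. The class may thus hold different cells in the 2 libraries, and the part of this was not tested. Heat shock genes were lower along with the members, at a summed ratio of 0.771, Hspa1a at 0.244 and Hspa1b at 0.182, and their part was not tested.

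The other values past 2-fold rested on few UMIs. Egr1 in CD8 T cells was 11.6 CPM (22 UMIs) against 31.7 CPM (169 UMIs), a ratio of 0.366. Fosb in CD4 T cells was 19.2 CPM (8 UMIs) against 41.4 CPM (105 UMIs), a ratio of 0.463. Jun in gamma-delta T cells was 153 CPM (58 UMIs) against 316 CPM (100 UMIs), a ratio of 0.486, and Fos there was 190.5 against 363 CPM, a ratio of 0.524, just inside the limit. By flow cytometry, the study found a larger share of cells with the transcription factor RORγt among lung gamma-delta T cells of GFI1 KO mice. The makeup of this class may therefore differ between the libraries, and its part was not tested. Egr2 was at 0 UMIs in the GFI1 KO library in CD4 T and CD8 T cells, against 28 and 27 UMIs, both pairs under the 30 asked for. Under the processing alternatives the log2 ratio ran from -1.53 to -0.95 for Egr1 in CD8 T cells, from -1.44 to -0.04 for Fosb in CD4 T cells and from -1.06 to -0.78 for Jun in gamma-delta T cells, so each of the 3 fell inside 2-fold under at least 1 of them.

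B cells and alveolar macrophages, the 2 large classes of like depth in both libraries, had no member past 2-fold. In B cells Jun had the largest ratio, 1.68 (170.0 against 101 CPM), and Fosb the smallest, 0.635. In alveolar macrophages, with 90197 and 168767 UMIs of the members, ratios ran from 0.794 for Egr2 to 1.11 for Ier2, and Egr1 was alike at 0.991. The summed level over the 10 genes differed little between the libraries in any of the 9 classes, from a ratio of 0.867 (0.848 to 0.887) in classical monocytes to 1.17 (1.12 to 1.21) in NK cells. The summed level of the 12 heat shock genes had a wider range, 0.771 in classical monocytes to 1.68 in NK cells. This sum was higher in the GFI1 KO library in 8 of the 9 classes, but single genes did not all follow it. In B cells Hspa1a, Hspa1b and Hspb1 were past 2-fold lower and 0 were past 2-fold higher. In alveolar macrophages Hspb1 was past 2-fold lower and 0 were past 2-fold higher.

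How the members were spread over cells also depended on the class. At 1500 UMIs a cell, a neutrophil in the GFI1 WT library held a median of 16.0 UMIs of the members, 0 of 1321 neutrophils held none, and 62.1% held 5 or more of the 10 genes. Interstitial macrophages had a like median, 16.5, but 10.4% of them held none and the 10th and 90th percentiles were 0.300 and 42.0 UMIs. Fibroblasts were the most uneven class: their median was 3 UMIs, 12.1% held none, and the tenth of cells with the most held 52.4% of all UMIs of the members. In the 9 compared classes the medians lay between 3 and 7 UMIs and differed by at most 1 UMI between the libraries.

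**Figure D4:**
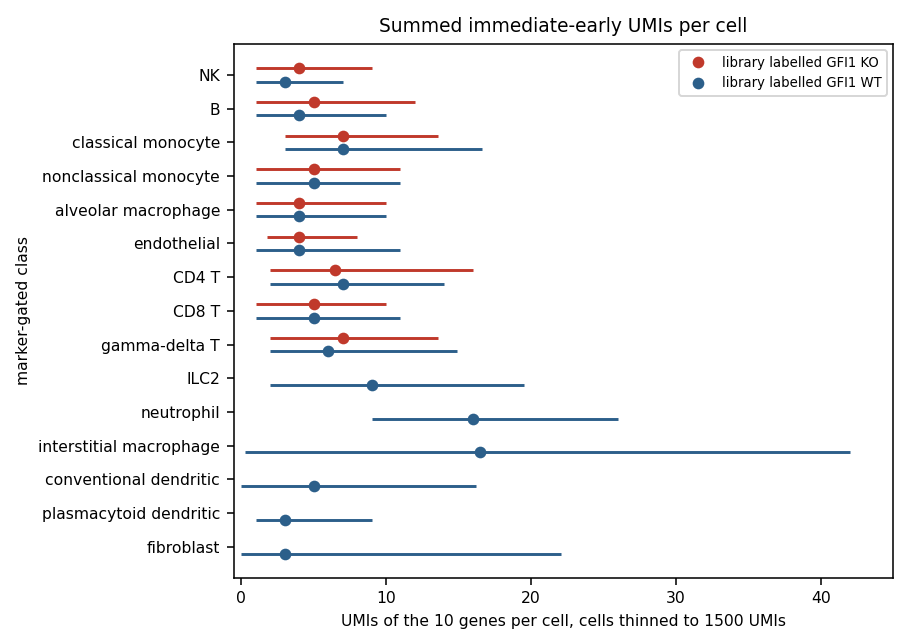
UMIs of the 10 genes per cell after each cell was thinned to 1500 UMIs, by class and library; points are medians over cells and lines run from the 10th to the 90th percentile. Neutrophils (median 16.0) and interstitial macrophages (median 16.5) lie above the other classes, and the line for fibroblasts runs from 0 to 22.1 around a median of 3.

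Whether cells with a Fos UMI also held more of the other members differed by class. Over 17 sets of a class and a library with enough cells on both sides, 114 member values had 30 UMIs, of which 79 had an interval above 1, 35 had one that held 1 and 0 had one below 1. The same count was not made over all genes, so it does not tell the members apart from a shift shared by many genes. These intervals do not cover the spread between cells. A cell counted as without Fos may hold Fos UMIs that thinning left out. In the GFI1 WT library a Fos UMI was in 58.0% of alveolar macrophages thinned and 90.9% unthinned. These shares were 92.3% and 95.8% in neutrophils and 13.8% and 27.0% in endothelium. The ratios therefore also depend on the Fos level of a class, and their differences between classes were not tested. Among 280 fibroblasts in the GFI1 WT library, the 108 with a Fos UMI had 519 CPM of Atf3 against 7.75 CPM in the 172 without, a ratio of 66.9 (17.9 to 561), and ratios of 23.6 for Fosb, 7.79 for Junb, 7.64 for Egr1, 7.04 for Ier2 and 3.29 for Jun. In endothelium of the same library (287 and 1790 cells) the ratios were 6.11 for Egr1 (5.18 to 7.21), 5.47 for Fosb, 3.20 for Atf3 and 2.59 for Junb. In alveolar macrophages (2260 and 1636 cells) no member passed 1.83, the value of Egr1, and in neutrophils (1219 and 102 cells) Junb had 1.24, Egr1 1.06 and Jun 0.893 (0.525 to 1.63). In NK cells of the GFI1 KO library (68 and 157 cells) Jun was 0.770, Junb 0.980 and Ier2 0.957, and 0 of 4 members with 30 UMIs had an interval above 1. In those of the GFI1 WT library (218 and 1743 cells) Jun was 0.739, Jund 0.917, Junb 1.12, Ier2 1.29 and Egr1 1.93. Nonclassical monocytes gave 7.15 (3.50 to 17.0) for Egr1 in the GFI1 KO library and 3.93 (2.28 to 7.20) in the GFI1 WT library, and classical monocytes gave 1.91 and 4.47, the second on 6 UMIs in the cells without Fos. Gapdh and Ppia, read as reference genes, lay between 0.776 and 1.22 in fibroblasts, endothelium, alveolar macrophages and neutrophils of the GFI1 WT library. Actb, also a reference gene, was 1.27 (1.15 to 1.41) in fibroblasts, 1.20 (1.14 to 1.25) in endothelium, 1.13 (1.07 to 1.19) in neutrophils and 0.997 in alveolar macrophages. Depth before thinning was alike in fibroblasts with and without Fos, with medians of 6258 and 5702 UMIs, and Ptprc, the leukocyte gene encoding CD45, was 6.17 and 7.75 CPM. Lyz2 was 129.6 CPM in fibroblasts with Fos and 81.4 in those without. In endothelium Ptprc was 74.3 CPM in cells with Fos and 20.5 in those without, Lyz2 was 339 and 118 CPM, and median depths were 5475 and 4550 UMIs. Whether leukocyte RNA or doublets took part in either class was not tested.

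**Figure D5:**
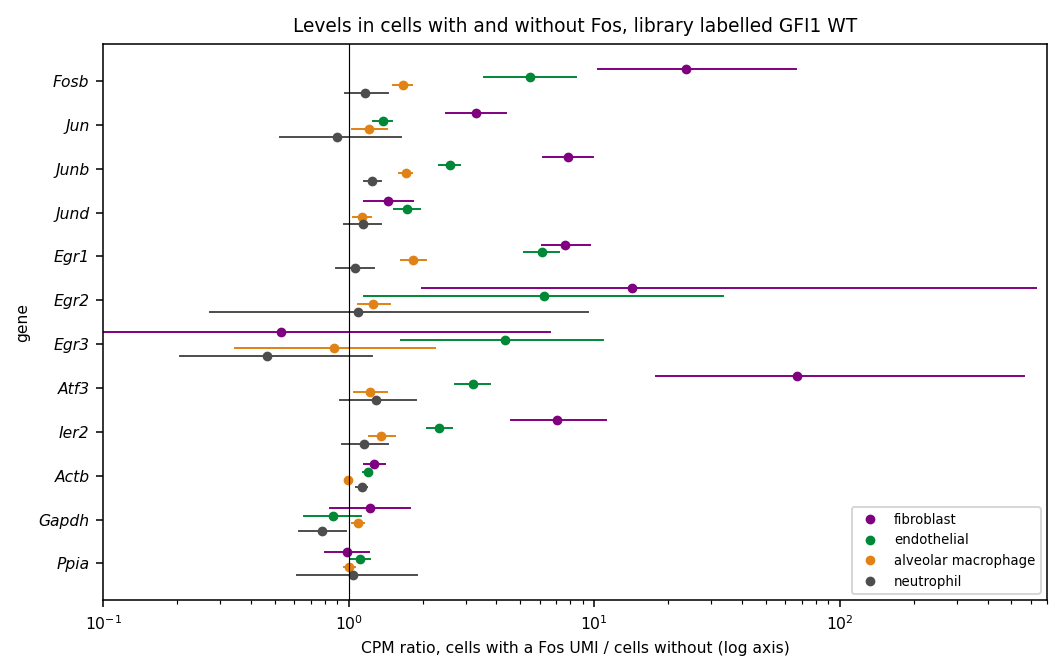
Ratio of levels in cells with a Fos UMI over cells without, in the GFI1 WT library, on a log axis with exact 95% counting intervals drawn within the axis, for the other 9 members and for Actb, Gapdh and Ppia, in 4 classes. Fibroblasts lie farthest right (Atf3 at 66.9, Fosb at 23.6), Egr1 in endothelium lies at 6.11, and Egr1 lies at 1.83 in alveolar macrophages and 1.06 in neutrophils.

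Over the 18 points of 9 classes in 2 libraries, the members that varied most alike were Fos and Fosb (Pearson's r of log2(CPM + 10), 0.82), Fosb and Egr2 (0.78), Fosb and Egr1 (0.77) and Egr1 and Atf3 (0.74). Egr2 and Ier2 (-0.75) and Fosb and Jun (-0.54) ran against each other. Outside the list, the genes most like the summed level among 10883 ranked were Ifngr2 (0.82), Zswim4 (0.81), Smim40 (0.80), Cysltr1 (0.79) and Nufip1 (0.78). The points share libraries and classes, so these values describe likeness only.

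Other genes of the early response were read from lists by role, against the 10.8% past 2-fold over all genes and classes. AP-1 partners such as Fosl2, Batf and Maff had 78 gene and class values with 30 UMIs, of which 1 was past 2-fold higher in the GFI1 KO library and 4 were lower, 6.41% in all. The 21 other early-response genes gave 140 values, 10 higher and 13 lower (16.4%). Ier3, which restrains NF-kappaB and cell death signals, was higher in B cells (24.2 against 4.63 CPM, 5.23-fold), nonclassical monocytes (262 against 66.2 CPM, 3.96-fold), CD8 T cells (3.01-fold) and classical monocytes (944 against 383 CPM, 2.46-fold). The 7 classical monocyte markers were also higher in sum in B cells (310.0 against 224 CPM) and CD8 T cells (1234 against 500.4 CPM). The part of monocyte RNA in these Ier3 levels was not tested. Nr4a3, an orphan nuclear receptor of the early response, was lower in classical monocytes (ratio 0.348), nonclassical monocytes (0.480), alveolar macrophages (68.9 against 150.0 CPM, 0.459) and CD8 T cells (0.446). In endothelium it had 1 UMI against 85, and with the floor of 7.71 CPM a difference from 7.80 CPM could hardly be detected.

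Genes of negative feedback on the response, such as the phosphatase Dusp1 and the RNA-binding Zfp36, gave 119 values, 9 higher and 12 lower (17.6%). In endothelium 4 of 15 were lower and none was higher, where 11.5% of all genes were lower, with Socs3 at 0.473 (159 against 336 CPM), while Dusp1 was 326 against 383 CPM and lay within 2-fold. Upstream factors, among them Srf, Elk1 and the MAP kinases, gave 100 values, 1 higher and 4 lower, the higher one being Srf in endothelium at 2.48 (10 UMIs against 113). Heat shock genes gave 98 values, 8 higher and 6 lower (14.3%), and the reference genes 71 values, 3 higher and 0 lower (4.23%).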

How the data were processed

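The authors deposited raw UMI counts per gene and cell for 1 library per label, made per the labels' processing notes with Cell Ranger 9.0.1 on GRCm39 (mm39). How doublets and free RNA were treated is not given in the sources used here, and no doublet caller was run. From these counts, cells with at least 500 UMIs, 200 genes and at most 20% mitochondrial UMIs were kept, and 9548 ribosomal, mitochondrial and Gm-named genes, which held 19.0% and 16.5% of UMIs, were left out, as in the study's methods. A cell joined a class when at least 3 of its markers were raised above the mean of the library means. The runner-up class could have at most 0.5 of that share of raised markers. This rule was set after the data were seen. T cells so placed were split by detected UMIs of Cd4 (CD4 T), Cd8a or Cd8b1 (CD8 T) and Trdc (gamma-delta T), with none of the others. These T cell classes can therefore depend on depth and free RNA, which was not tested. General capillary cells and aerocytes were split from endothelium by further markers. The markers checked were the ones that placed the cells, so their being higher inside each class than outside it is no separate check. Levels are CPM, UMIs of a gene per 1000000 UMIs of its class, with exact Poisson intervals, ratios have exact conditional binomial intervals, and shares were taken after thinning to 1500 UMIs. All 10 members, and every list, were chosen with earlier results of these data known, and the genes named in a class are those past 2-fold with at least 30 UMIs. Genes named outside them from the lists were picked as examples after their values were seen. Jun, Junb and Jund overlap genes on the opposite strand, and whether counting used strand is not given in the sources used here. Python 3.11.15, numpy 2.4.6, scipy 1.17.1 and pandas 2.3.3 were used.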

Additional observations from a re-analysis of the deposited data

Results flagged for a closer look

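The ratio of Fos between the libraries was 2.09 in NK cells and 0.317 in endothelial cells. It drew attention because Fos was past 2-fold in opposite directions in these 2 classes. With 1 library per label the difference was not tested. The 231 and 2010 NK cells held 298 and 894 Fos UMIs, and the 108 and 2202 endothelial cells held 21 and 1855. At 1500 UMIs a cell, 7.07% (2.89 to 14.0) and 13.8% (12.4 to 15.4) of endothelial cells held a Fos UMI, so these intervals overlapped.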

How the results depend on the processing

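No paired analysis was possible because each label has 1 library, and for the same reason no replicate could be left out. Of the 12 gene and class values past 2-fold, 4 stayed past it under all alternatives that gave a value (Egr2 in classical monocytes and Fos, Fosb and Egr1 in endothelium), and 2 more were at 0 UMIs under the GFI1 KO label. Egr2 in nonclassical monocytes turned from -2.36 to 0.26 on the log2 scale without the tenth of cells with the most UMIs. Keeping all deposited cells, asking for 1 more marker, weighting cells alike and centring on the median of all genes left both counts past 2-fold within 1.5 times. The count higher went from 1 to 0 with all genes in the denominator. The count lower went from 11 to 4 in cells thinned to 1500 UMIs and to 5 without the tenth of cells with the most UMIs. Fewer pairs reach 30 UMIs under thinning or without these cells. Ratios can change too, as that of Egr2 in nonclassical monocytes did. How many calls were lost to each was not counted. Limiting endothelium to general capillary cells was chosen after seeing the data and moved no ratio.

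The log2 ratio of the summed level moved outside its counting interval in 22 of 73 recomputed values, by at most 0.18. With all genes in the denominator it was 0.12 in NK, 0.17 in B, -0.24 in classical monocyte, -0.12 in alveolar macrophage and -0.09 in CD8 T cells. With every cell weighted alike it was 0.31 in NK and -0.10 in alveolar macrophage cells. Thinned to 1500 UMIs it was 0.30 in NK, 0.07 in nonclassical monocyte, -0.10 in alveolar macrophage, -0.04 in endothelial and 0.06 in gamma-delta T cells. Without the tenth of cells with the most UMIs it was 0.32 in NK, 0.15 in nonclassical monocyte, -0.10 in alveolar macrophage and 0.07 in CD8 T cells. Centred on the median of all genes it was -0.24 in classical monocytes. Without Junb it was -0.28 in classical monocyte, -0.06 in nonclassical monocyte, -0.04 in CD4 T, -0.06 in CD8 T and -0.19 in gamma-delta T cells. The sign changed in 7 of the 73, so the direction of the summed level is not settled in classes near 0, and the cause was not tested. Depth limits Egr2 and Egr3 most, at 0 to 2 UMIs in several lymphocyte classes under the GFI1 KO label.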
